A study of Mus musculus with 26 samples.

Results

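Irg1, the enzyme gene for itaconate, and 8 other enzyme genes were described across antigen-presenting cells of mouse lung and spleen. The 8 encode enzymes of the tricarboxylic acid (TCA) cycle or of matching reactions outside it. The cells were compared with and without a deletion of the kinase mTOR. The 9 genes were taken by symbol from a table of 23420 genes: Irg1, Cs, Aco1, Idh1, Idh2, Idh3a, Ogdh, Mdh1 and Mdh2. All 9 passed the filter on low values that left 13311 genes for testing. Cells were sorted for RNA sequencing from animals labelled mTORΔAPC (KO), and their wild-type littermates served as controls (WT). Across 5 cell types and 2 genotypes this gave 10 groups and 26 libraries. Each genotype was sequenced in 2 libraries for the spleen populations, CD8a dendritic cells (DCs) and CD11b DCs, and in 3 for the lung populations, which were CD11b DCs, inflammatory DCs and alveolar macrophages. Spleen cells, lung CD11b DCs and alveolar macrophages came from mice labelled steady state. The inflammatory DCs, WT and KO alike, came from lungs of mice dosed through the nose with house dust mite extract (25 µL of a 1 mg/mL solution) several times a week, for 17 days by the sample labels and 18 days by the protocol. No other cell type came from such mice, so cell type and treatment cannot be told apart for them. The sources used here do not name the promoter that drives the deletion, the strain, the age or any pooling of animals.

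The TCA cycle burns acetyl units in the mitochondrion: citrate synthase makes citrate, citrate is turned over through cis-aconitate to isocitrate, and dehydrogenases then pass electrons to the respiratory chain. Irg1 (aconitate decarboxylase, also named Acod1) takes cis-aconitate out of the cycle and makes itaconate, a metabolite that activated macrophages accumulate and that inhibits succinate dehydrogenase. Aco1, Idh1 and Mdh1 encode cytosolic enzymes that run matching reactions outside the mitochondrion. Cs, Idh2, Idh3a, Ogdh and Mdh2 encode mitochondrial enzymes.

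Irg1 lies on chromosome 14 (chr14:103046977-103056573, plus strand, GENCODE M21, mm10). The 250 bases before its start site are shown because Irg1 differed most between groups, and those of Idh1 because Idh1 had the largest called fall of the 8 enzymes. Both are RefSeq sequences of build GRCm38.p6, 5′ to 3′ on the gene's strand. The Irg1 window is chr14:103046762-103047011 on the plus strand, and the first of 2 Idh1 windows is chr1:65186480-65186729 on the minus strand. Each RefSeq start site lies downstream of the outermost GENCODE start, so the last bases of both windows fall within the GENCODE gene.
Irg1: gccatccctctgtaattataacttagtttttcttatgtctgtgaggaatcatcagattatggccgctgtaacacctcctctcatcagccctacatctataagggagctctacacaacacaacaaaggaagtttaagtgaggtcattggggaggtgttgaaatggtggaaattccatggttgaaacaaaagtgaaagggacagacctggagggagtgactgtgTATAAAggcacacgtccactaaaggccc
Idh1: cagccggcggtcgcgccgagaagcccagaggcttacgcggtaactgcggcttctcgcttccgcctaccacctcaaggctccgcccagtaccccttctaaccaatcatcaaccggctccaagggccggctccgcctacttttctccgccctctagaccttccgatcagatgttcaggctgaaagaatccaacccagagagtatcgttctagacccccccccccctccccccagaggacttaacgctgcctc
The capitals mark the letters TATAAA, which begin 28 bases before the Irg1 start site. These letters stood in 12.4% of 32851 mouse windows of the same length, on either strand. The Irg1 window was 44.4% G and C, and the Idh1 window was 61.6%. On both strands of the 2 windows shown, no match was found to the interferon-stimulated response element (GAAA, any 2 bases, GAAA, in 2.98% of all windows), the NF-kB consensus (3.9%), the AP-1 site (TGANTCA, 6.75%), the antioxidant response element core (TGACNNNGC, 10.2%), the E-box CACGTG (6.02%) or the NRF-1 core (GCGC, any 2 bases, GCGC, 4.98%). Among the other members, 3 of 6 Ogdh windows held the E-box, and 1 of them also held the NF-kB consensus. Ogdh windows 5 and 6 overlap and hold the same E-box, 141 and 162 bases before their start sites. Idh3a was not in the promoter table.

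Values are DESeq2-normalized counts, which scale each library's reads by its size factor. The depth was 7.37 to 14.1 M reads a library, with 12992 to 14407 genes above 0. Among lung CD11b libraries, WT replicate 3 and KO replicates 2 and 3 had fewer genes above 0 (12992 to 13173) than the others (13876 to 14407). Mtor fell in KO cells in 4 of the 5 cell types. Its values were 396 and 355 in WT and 63.0 and 82.6 in KO spleen CD11b DCs. In lung CD11b DCs they were 476, 364 and 397 in WT and 297, 316 and 169 in KO. In inflammatory DCs they were 404, 345 and 336 in WT and 196, 236 and 218 in KO, a log2 difference of -0.74 ± 0.22 (SE) that missed the threshold (limma adjusted p = 0.0668). The log2 difference was -2.93 ± 0.27 in spleen CD8a DCs, -2.36 ± 0.27 in spleen CD11b DCs and -2.02 ± 0.22 in alveolar macrophages. It was -0.70 ± 0.22 in lung CD11b DCs. The fall in Mtor was thus smaller in lung CD11b and inflammatory DCs than in the others. Its part in differences between cell types was not tested. Of the steady-state libraries, no WT library held more than 2.28 counts over 4 Y-linked genes, whereas all KO libraries from spleen and alveolar macrophages held at least 659.5. Sex and genotype cannot be told apart there. Among lung CD11b KO libraries only replicate 1 held Y-linked counts (1318), and all inflammatory DC libraries did. Xist, a gene of female cells, was at 3620 in spleen CD8a and 3092 in spleen CD11b KO replicate 1, and at 12.0 and 21.4 in their KO replicate 2. It was at 1450 in lung CD11b KO replicate 1, 572 to 2293 in KO alveolar macrophages and 717 in WT inflammatory DC replicate 1. Libraries high in both hold signal of both sexes, which the labels do not mention. The sorted names were checked against marker genes. The cDC1 gene Xcr1 was at 6363 and 6377 in WT spleen CD8a DCs. Siglec5 was at 6979 to 7323 in WT alveolar macrophages. The DC genes Flt3 and Zbtb46 were low in WT inflammatory DCs, 104 to 170 for Flt3 and 88.9 to 111 for Zbtb46, against 1844 to 3066 and 713 to 1233 in WT lung CD11b DCs. Of the other conventional DC markers, Dpp4, Ccr7 and H2-Ab1 were lower too and Batf3 overlapped. Itgax was higher in WT inflammatory DCs, at 12583 to 18010 against 4873 to 6628. H2-Ab1 was at 66821 to 76011 in them, against 4923 to 5572 in WT alveolar macrophages. The same inflammatory DC libraries held 784487 to 1135997 counts of Chi3l3 and 2845 to 3072 of the macrophage gene Mertk. Of the other alveolar macrophage markers, Siglec5 (357 to 708), Marco, Ear1, Ear2, Pparg and Krt79 were below all WT alveolar macrophage libraries. Car4 and Fabp4 overlapped them. The label is kept for these libraries as a name.

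Irg1 was nearly silent in spleen DCs, low in resting lung cells and high in inflammatory DCs. In KO cells it rose 50.5-fold in lung CD11b DCs, where much Mtor RNA remained, and 8.44-fold in alveolar macrophages. As reads, Irg1 was at 0 and 2 in the WT and 0 and 0 in the KO spleen CD8a libraries. Spleen CD11b libraries held 0 and 7 reads in WT and 1 and 0 in KO. These counts are too small for a fold to be given between genotypes. WT lung CD11b DCs held 11.9, 29.6 and 6.4 normalized counts, and WT alveolar macrophages held 14.8, 12.1 and 5.4. WT inflammatory DCs held 249.8, 529 and 370.2. Every inflammatory DC library was thus above every other WT library, while the 2 resting lung cell types overlapped. The WT inflammatory DCs were 25.6-fold higher than WT lung CD11b DCs (limma adjusted p = 1.9e-06) and 33.3-fold higher than WT alveolar macrophages (adjusted p = 7.67e-07), with 3 libraries a group.

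**Figure D1:**
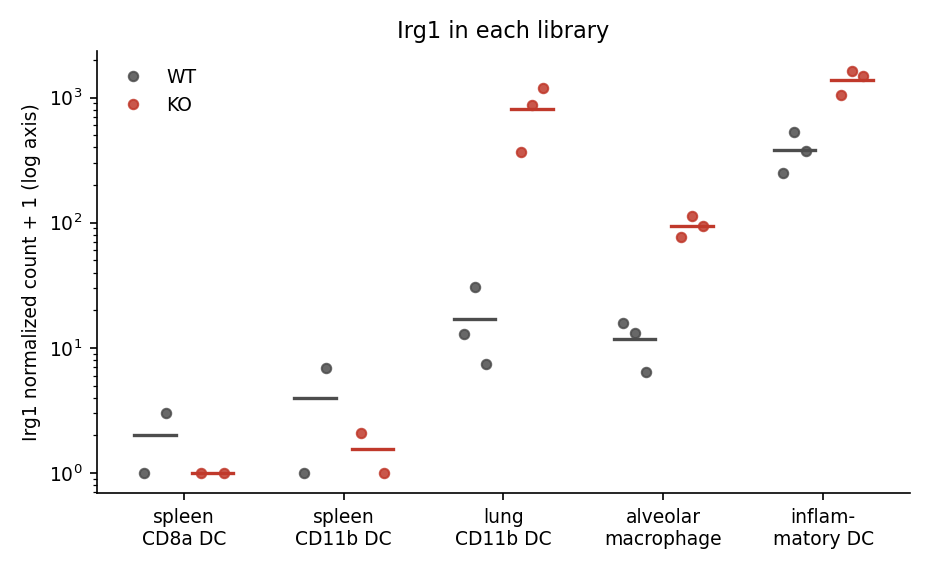
Irg1 normalized count plus 1 on a log axis for all 26 libraries, grouped by genotype within cell type; each point is 1 library and each line a mean. The KO libraries of lung CD11b DCs, from 364 to 1189.9 counts, stand far above the WT libraries of the same cells, from 6.4 to 29.6.

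KO lung CD11b DCs held 364, 870.1 and 1189.9 counts of Irg1. The lowest KO library was above the highest WT library. The log2 difference was 5.66 ± 0.63 (SE), a 50.5-fold rise on the scale of log2(normalized count + 1), with an adjusted p of 6.35e-07 (limma, Benjamini-Hochberg). The change stayed called when any 1 library was left out, at 5.19 to 6.21, and was 6.15 without KO replicate 1, the library with Y-linked counts. In the same comparison 12.0% of all genes tested rose and 14.0% fell. Neutrophils also express Irg1. The summed neutrophil markers, of which 10 of 11 were in the table, were 554 to 1120 in WT and 889.8 to 1648 in KO, with Camp at 0 in both and Ngp at 0 in KO. Of these genes Mmp8 was called, at 10.6 to 35.5 in WT and 52.3 to 203 in KO (limma adjusted p = 0.00505). The 12 monocyte and macrophage markers summed to 43531 to 49592 in WT and 54967 to 69473 in KO. In 7 of the 12 all KO libraries were above all WT libraries, and in 1, Emr1, below. The share of all genes tested that separated in this way was not counted. Ly6c2 held 53.9 to 176.5 in WT and 2569 to 3659 in KO, Fcgr1 held 144 to 378 and 1180.1 to 1865, and Mertk held 64.5 to 204 and 334 to 741. The 7 conventional DC markers summed to 191048 to 229930.0 in WT and 134978 to 169483 in KO, a sum of which H2-Ab1 made up 92.4% in WT. Flt3, Dpp4 and H2-Ab1 were lower in all KO libraries (Flt3 at 1844 to 3066 in WT and 216.5 to 1071 in KO). Itgax and Ccr7 were higher in all KO libraries (Itgax at 4873 to 6628 in WT and 12801 to 14657 in KO). The part of these markers in the Irg1 result was not tested, and fewer cells of a type cannot be told apart from less RNA per cell in sorted bulk samples.

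In alveolar macrophages the KO libraries held 75.2, 111 and 93.2 counts of Irg1, each above all 3 WT libraries. The rise was 3.08 ± 0.63 on the log2 scale, 8.44-fold, with an adjusted p of 0.00105 (limma). It stayed called without any 1 library, at 2.69 to 3.34. Of all genes tested, 10.5% rose and 6.39% fell in this comparison. The neutrophil marker sum was 1328 to 1415 in WT and 2263 to 2529.6 in KO. Of its 10 genes 4 rose: Cxcr2 (log2 difference 3.32, adjusted p = 0.000465), Mmp9 (3.23, 0.00529), S100a8 (2.00, 0.005) and S100a9 (2.15, 0.00737). Csf3r fell (-1.05, adjusted p = 0.00738), and Ngp and Camp of the same list were at 4.4 or below in all 6 libraries. Ly6g was not in the table. Of the 12 monocyte and macrophage markers, 7 were higher in all KO libraries and 1, Emr1, was lower. How many of all genes tested were higher in all KO libraries was not counted. Ly6c2 held 6.6 to 11.9 in WT and 62.8 to 379.9 in KO. Their part in the Irg1 result was not tested.

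In inflammatory DCs the KO libraries held 1051, 1632 and 1491 counts of Irg1, again all above the WT libraries. The log2 difference was 1.90 ± 0.63, 3.73-fold, and did not pass the test (limma adjusted p = 0.114). It passed with 5 of 8 other settings, among them edgeR on the recovered reads (adjusted p = 0.00659) and a fit to these 6 libraries alone (0.00564), and in none of the 6 fits that left out a library. Only 1.45% of all genes tested rose here and 1.92% fell. The neutrophil marker sum overlapped between genotypes, at 2032 to 3287 in WT and 2279 to 2726 in KO. Of the 12 monocyte and macrophage markers, 3 were higher in all KO libraries and 1 was lower. Ly6c2 held 676.5 to 756.5 in WT and 1211 to 1674 in KO. Of the 7 conventional DC markers, 1 was higher in all KO libraries and 4 were lower, with Flt3 at 104 to 170 in WT and 20.1 to 36.4 in KO. Their part in the Irg1 result was not tested.

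The Irg1 difference between genotypes was itself compared between cell types. Between lung and spleen CD11b DCs the test was called (limma adjusted p = 0.00025), also without any 1 library. Its fitted size of 6.50 ± 1.00 on the log2 scale is given with no weight on the value, since the spleen side holds 0 to 7 reads a library: it was 7.90 without spleen WT replicate 1 and 5.11 without spleen WT replicate 2. The genotype effect was smaller in inflammatory DCs than in lung CD11b DCs by a log2 difference of -3.76 ± 0.89 (adjusted p = 0.0068). The corresponding value for alveolar macrophages was -2.58 ± 0.89 (adjusted p = 0.05 after rounding, 0.04998 before), a call that held only without lung WT replicate 2 (adjusted p = 0.0219), lung KO replicate 1 (0.0194) or alveolar WT replicate 3 (0.0382) and was lost in the other 9 of 12 fits without a library, at -2.72 to -2.11 (adjusted p 0.0693 to 0.119). Alveolar macrophages and inflammatory DCs differed by -1.18 ± 0.89 (adjusted p = 0.577). These comparisons share the lung libraries. The fall in Mtor also differed in size between the cell types, as given above, and its part here was not tested.

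The cytosolic enzymes Aco1 and Idh1 varied together across cell types and were highest in alveolar macrophages and inflammatory DCs. Both fell in KO alveolar macrophages, and Idh1 also fell in KO spleen CD8a DCs. Idh1, on chromosome 1 (chr1:65158616-65186500, minus strand), makes NADPH while it turns isocitrate into 2-oxoglutarate. It held 5992, 6176 and 5869.8 counts in WT alveolar macrophages. WT inflammatory DCs held 4488, 5121 and 4532, below every alveolar macrophage library. WT lung CD11b DCs held 835, 787 and 959 and WT spleen CD8a DCs 691 and 938, with overlap between them. WT spleen CD11b DCs were lowest, at 222 and 401. Idh1 was 7.01-fold higher in WT alveolar macrophages than in WT lung CD11b DCs (adjusted p = 1.65e-13) and 2.69-fold higher in WT spleen CD8a than CD11b DCs (adjusted p = 2.51e-06). The summed red pulp macrophage markers were 25816 to 43755 in WT spleen CD8a and 3224 to 4657 in WT spleen CD11b libraries. Their part in the Idh1 difference between these cell types was not tested. Inflammatory DCs and alveolar macrophages differed by -0.35 on the log2 scale (adjusted p = 0.0692).

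In spleen CD8a DCs Idh1 was at 321 and 313 in KO, below both WT libraries. This fall of 2.53-fold (log2 difference -1.34 ± 0.18, limma adjusted p = 2.19e-05, 2 libraries per genotype) was the 1 call among the 9 genes there, where 1.50% of all genes rose and 3.63% fell. The summed markers of red pulp macrophages, all 6 above 0 in both groups, were 25816 to 43755 in WT and 4689 to 5135 in KO, and the monocyte and macrophage sum was 14923 to 22117 in WT and 3886 to 4274 in KO. Their part in the Idh1 result was not tested. In spleen CD11b DCs Idh1 was at 401 and 349 in KO (log2 difference 0.33 ± 0.18, adjusted p = 0.508), and without WT replicate 2 the difference was called, at 0.75 (adjusted p = 0.0313). The genotype effect differed between the 2 spleen cell types by -1.67 ± 0.26 (adjusted p = 0.000233).

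In alveolar macrophages Idh1 fell 1.56-fold, to 3916, 3599.5 and 4034 counts in KO (log2 difference -0.64 ± 0.15, adjusted p = 0.00305). The call held without any 1 library. Idh1 overlapped between genotypes in lung CD11b DCs (807.1, 807 and 933 in KO, log2 difference -0.02 ± 0.15, adjusted p = 0.955). The 2 effects differed by -0.63 ± 0.21 (adjusted p = 0.0422). That call held only without lung WT replicate 3 (0.0292), lung KO replicate 1 (0.0391) or lung KO replicate 2 (0.0489) and was lost in the other 9 of 12 fits without a library, at -0.66 to -0.56 (adjusted p 0.0546 to 0.0977). Inflammatory DCs held 3994, 3474.5 and 3430.1 counts in KO, all below WT, with a log2 difference of -0.38 ± 0.15 that did not pass (adjusted p = 0.2104).

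Aco1, on chromosome 4 (chr4:40143081-40198338, plus strand), encodes cytosolic aconitase, which becomes an iron-regulatory RNA-binding protein when it loses its iron-sulfur cluster. WT alveolar macrophages held 1525, 1795 and 1714 counts of Aco1 and WT inflammatory DCs 1579.8, 1436 and 1502, with overlap. WT lung CD11b DCs held 612, 552 and 732, and the 4 WT spleen libraries held 303 to 506. Aco1 was 2.66-fold higher in WT alveolar macrophages than in WT lung CD11b DCs (adjusted p = 1.5e-08). It fell 1.54-fold in KO alveolar macrophages, to 971, 1149.7 and 1151 (log2 difference -0.62 ± 0.14, adjusted p = 0.00309), and that call held without any 1 library. KO inflammatory DCs held 1227, 1229.8 and 1233.5 counts, all below WT, with a log2 difference of -0.29 ± 0.14 (adjusted p = 0.3800). The difference for lung CD11b DCs was -0.35 ± 0.14 (adjusted p = 0.0782) and was called only without KO replicate 1 (-0.48, adjusted p = 0.0154). In spleen DCs it was -0.10 and 0.02.

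Mdh1, on chromosome 11 (chr11:21556787-21572367, minus strand), encodes cytosolic malate dehydrogenase of the malate-aspartate shuttle. Its mean was lower in KO in all 5 cell types, and the difference was called in lung CD11b DCs. There the WT libraries held 2356, 1902 and 2389 counts and the KO libraries 1506, 1348 and 1479, with no overlap. The fall was 1.53-fold (log2 difference -0.61 ± 0.10, limma adjusted p = 8.61e-05) and stayed called without any 1 library. Spleen CD11b DCs held 2388 and 2719 counts in WT and 1832 and 1918 in KO, a log2 difference of -0.44 ± 0.12 that missed the threshold (adjusted p = 0.0761) and passed with DESeq2 on the recovered reads (0.0222), with sample weights (0.0196) and with the libraries of this cell type alone (0.0375). The differences were -0.27 ± 0.12 in spleen CD8a DCs (adjusted p = 0.258), -0.24 ± 0.10 in alveolar macrophages (0.105) and -0.26 ± 0.10 in inflammatory DCs (0.194). Mdh1 overlaps Wdpcp on the opposite strand over 133 bases. Wdpcp averaged 34.4 counts, and whether reads were counted by strand was not given. Among WT cells Mdh1 was highest in spleen CD8a DCs, at 3119 and 2966, and the other 4 groups overlapped their neighbours in the order of means.

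**Figure D2:**
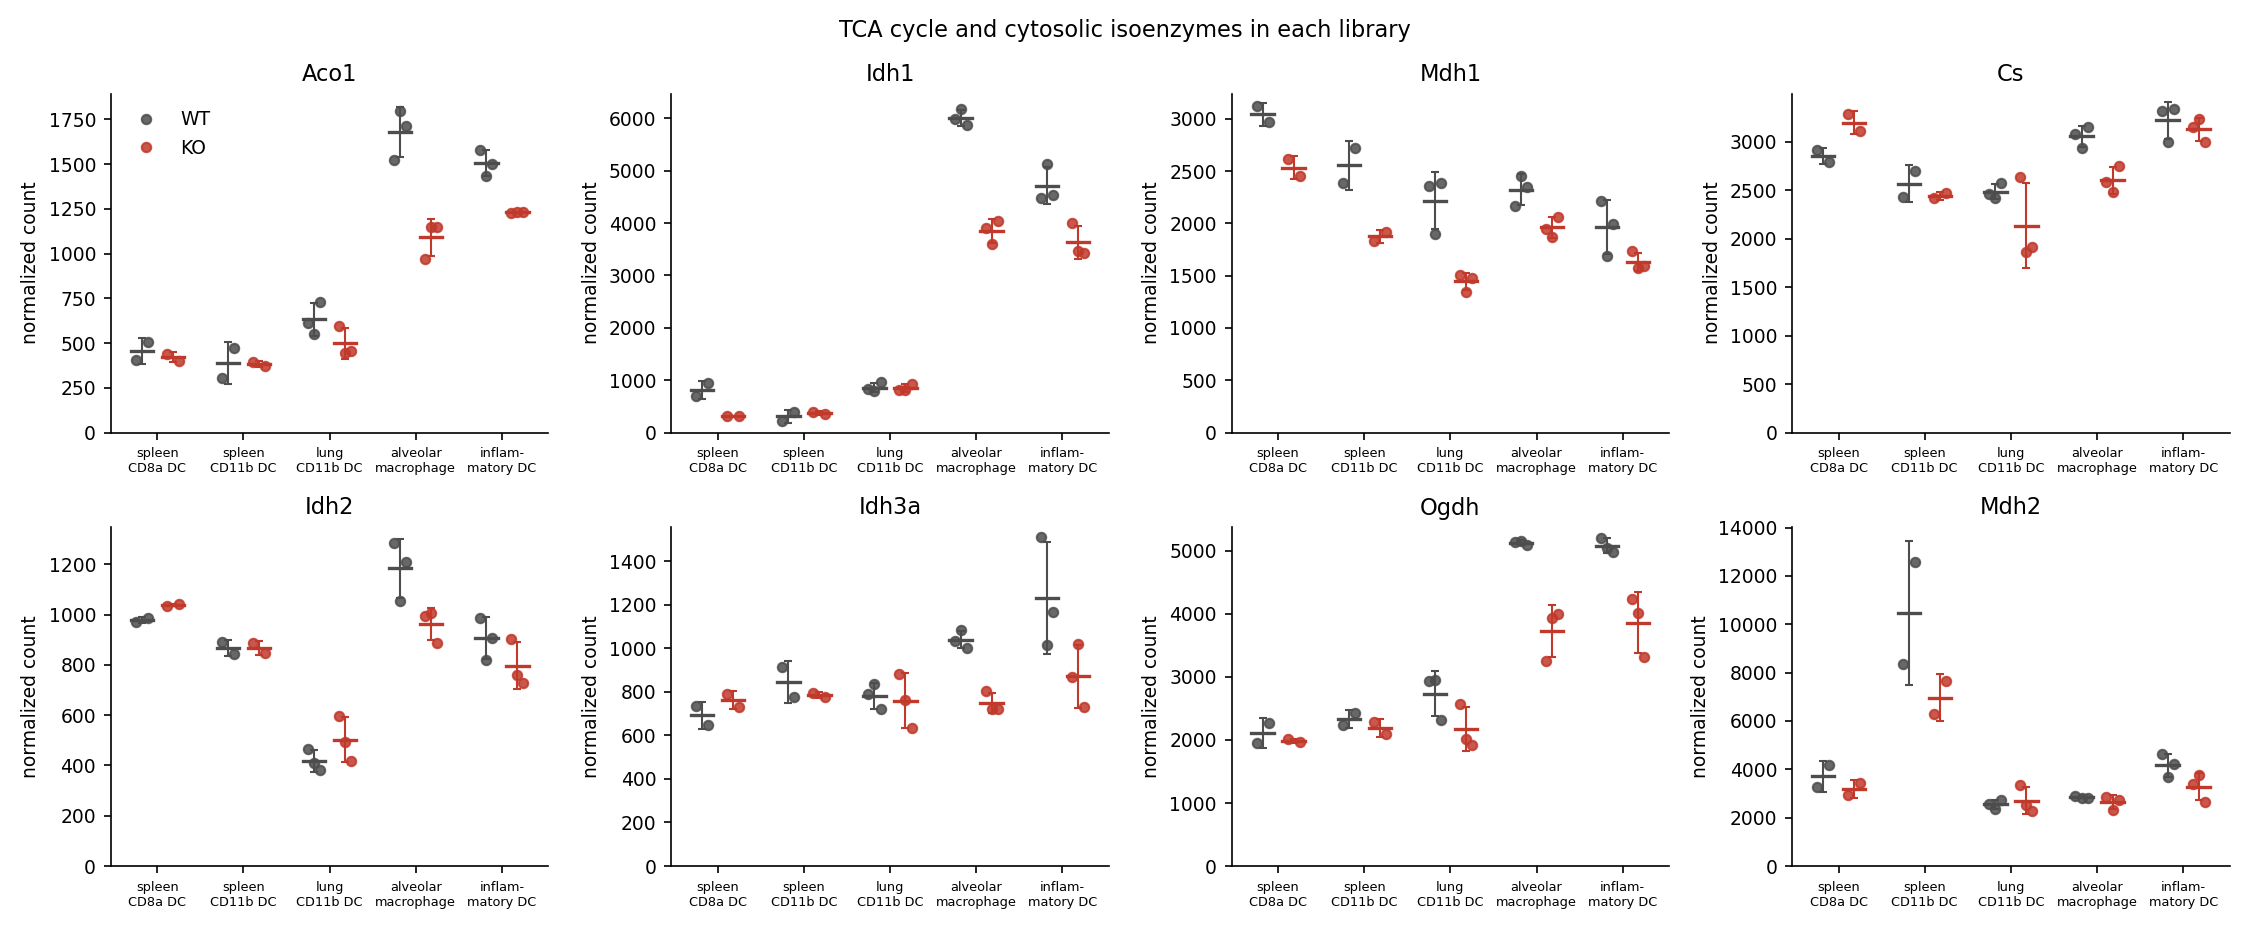
Normalized counts of the 8 enzymes in each library, on linear axes from 0; points are libraries, lines are means and bars are SDs. Idh1 in WT alveolar macrophages (5869.8 to 6176 counts) and Mdh2 in WT spleen CD11b DCs (8363 and 12583) stand above the other cell types.

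Of the mitochondrial enzymes, Ogdh encodes the E1 subunit of the 2-oxoglutarate dehydrogenase complex (chr11:6291633-6356642, plus strand). WT alveolar macrophages held 5142, 5158 and 5093 counts and WT inflammatory DCs 5208, 5046 and 4981. WT lung CD11b DCs held 2927, 2953 and 2322, and the WT spleen libraries 1947 to 2433. Ogdh was 1.89-fold higher in WT alveolar macrophages than in WT lung CD11b DCs (adjusted p = 5.19e-07). In KO alveolar macrophages it fell 1.38-fold, to 3247, 3936.5 and 3999 (log2 difference -0.47 ± 0.12, limma adjusted p = 0.00589). The groups did not overlap, and without KO replicate 1 the difference was -0.37 (adjusted p = 0.0507). KO inflammatory DCs held 4239, 4018 and 3316 counts, all below WT, with a log2 difference of -0.40 ± 0.12 that missed the threshold (adjusted p = 0.0575) and passed without KO replicate 1 (-0.48, 0.0459). KO lung CD11b DCs held 2569.5, 2020.1 and 1918 and overlapped WT. The log2 difference was -0.34 ± 0.12 (adjusted p = 0.0355). The call was lost with sample weights (0.0555), with these 6 libraries alone (0.207) and in 4 of 6 fits without a library: without WT replicate 1 (-0.28, adjusted p = 0.127), WT replicate 2 (-0.28, 0.137), KO replicate 2 (-0.29, 0.118) or KO replicate 3 (-0.25, 0.161).

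Idh3a encodes the catalytic subunit of the NAD-dependent isocitrate dehydrogenase of the cycle (chr9:54586334-54604661, plus strand). In alveolar macrophages it held 1033, 1082 and 1003 counts in WT and 804, 719.6 and 722 in KO. The groups did not overlap, and the fall was 1.39-fold (log2 difference -0.47 ± 0.14, adjusted p = 0.0184). The call was lost without WT replicate 1 (adjusted p = 0.0503), WT replicate 2 (0.0709), KO replicate 2 (0.0698) or KO replicate 3 (0.0628), at log2 differences of -0.48, -0.44, -0.45 and -0.45. Inflammatory DCs held 1512, 1015 and 1166 in WT and 866, 1019 and 729 in KO, with overlap. Their log2 difference of -0.49 ± 0.14 missed the threshold (adjusted p = 0.0503) and passed without WT replicate 2 (-0.62, 0.0203) or KO replicate 2 (-0.61, 0.0336). In the DCs of spleen and resting lung the difference lay between -0.10 and 0.14.

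Cs, citrate synthase, varied least across the cell types. It lies on chromosome 10 (chr10:128337734-128362479, plus strand), and its WT group means ran from 2481 ± 78.0 (SD, n = 3) in lung CD11b DCs to 3217 ± 193 (SD, n = 3) in inflammatory DCs. Its KO libraries lay below the WT libraries in alveolar macrophages (2933 to 3147 in WT, 2475 to 2743 in KO), with a log2 difference of -0.23 ± 0.10 that did not pass (adjusted p = 0.117). KO replicate 1 of lung CD11b DCs held 2635 counts and the other KO libraries 1859 and 1909. The difference there was -0.24 ± 0.10 (adjusted p = 0.0813), and -0.40 without that library (adjusted p = 0.00052).

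Idh2, the NADPH-producing mitochondrial isocitrate dehydrogenase (chr7:80094846-80115392, minus strand), was lowest in lung CD11b DCs, at 464, 408 and 380.5 counts in WT. WT alveolar macrophages held 1054 to 1286, 2.83-fold more (adjusted p = 2.27e-10), and WT spleen CD11b DCs 845 and 889, 2.08-fold more (adjusted p = 1.13e-06). Between genotypes the log2 difference was 0.26 ± 0.12 in lung CD11b DCs (adjusted p = 0.116) and -0.29 ± 0.12 in alveolar macrophages (adjusted p = 0.0984). Neither passed, but they differed from each other by -0.55 ± 0.17 (adjusted p = 0.0264). That call was lost in 6 of 12 fits without a library: lung WT replicate 2 (adjusted p = 0.0501) or 3 (0.0579), lung KO replicate 1 (0.0633), alveolar WT replicate 1 (0.0757) or 3 (0.059) and alveolar KO replicate 3 (0.07), at -0.54 to -0.42. In lung CD11b DCs alone, Idh2 was called without KO replicate 3 (0.38, adjusted p = 0.0277).

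Mdh2, mitochondrial malate dehydrogenase (chr5:135778480-135790398, plus strand), set spleen CD11b DCs apart. Their WT libraries held 8363 and 12583 counts and their KO libraries 6274 and 7640.3. All 4 were above the highest value of any other cell type, 4621. WT spleen CD11b DCs held 4.02-fold more than WT lung CD11b DCs (adjusted p = 4.05e-09) and 2.79-fold more than WT spleen CD8a DCs (adjusted p = 3.9e-06). Their log2 difference between genotypes was -0.57 ± 0.19 (adjusted p = 0.1695). It passed without WT replicate 1 (-0.86, adjusted p = 0.0435). In spleen CD11b DCs limma and edgeR called 0 of the 9 genes, and DESeq2 called 1, beside 361 of 13311 genes. Of the 9, 2 had an unadjusted p under 0.05 with limma (12.5% of all genes did). With limma 1.28% of all genes rose and 0.233% fell.

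Per exonic kilobase (GENCODE M21 gene models), the highest of the 9 genes differed between cell types. In WT alveolar macrophages the level was highest for Idh1, at 2169.8 ± 55.6 normalized counts per kilobase (SD, n = 3), followed by Ogdh at 940.4 ± 6.3. In WT spleen CD11b DCs it was highest for Mdh2, at 2940.2 ± 838 (n = 2), followed by Mdh1 at 995 ± 91.2. In KO inflammatory DCs Irg1 reached 530.5 ± 115 per kilobase (n = 3), close to Cs at 541 ± 20.4. In WT alveolar macrophages Irg1 stood at 4.1 ± 1.9 per kilobase.

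The 8 enzymes other than Irg1 were then read together, cell type by cell type. In alveolar macrophages all 8 had a negative log2 difference, with a median of -0.38 against 0.02 over all genes tested. Aco1, Idh1, Idh3a and Ogdh fell, and Cs, Idh2, Mdh1 and Mdh2 did not pass. In 7 of the 8 the KO libraries all lay under the lowest WT library, which held for 21.5% of all genes tested. The alveolar macrophage markers, 9 of 10 in the table, summed to 300190.2 to 309677 in WT and 170979 to 190776 in KO, a sum of which Chi3l3 made up 89.6% in WT. Of the 9, 7 were lower in all KO libraries, among them Chi3l3 (267928 to 277962 in WT and 143757 to 161901 in KO), while Car4 (5844 to 6627 in WT and 13387 to 16109 in KO) and Marco (2444 to 2670.1 and 3242 to 3511) were higher. The part of these markers in the falls was not tested. In inflammatory DCs all 8 differences were again negative, with a median of -0.32 against -0.02 over all genes. With limma 0 of the 9 genes were called there, while 6 had an unadjusted p under 0.05 (13.7% of all genes did). The edgeR fit called 1 of the 9 (449 of 13311 genes) and DESeq2 called 3 (645 of 13311). In 3 of the 8, Aco1, Idh1 and Ogdh, the KO libraries all lay under the lowest WT library, against 11.1% of all genes. Of the 9 alveolar macrophage markers, 5 were lower in all KO libraries of inflammatory DCs and 0 were higher. Krt79 held 956 to 3605 in WT and 84.9 to 241 in KO there, and Fabp4 held 627 to 1124 and 96.8 to 230. The part of these markers in the differences was not tested. In lung CD11b DCs 6 of the 8 differences were negative (median -0.14, against -0.05), and Mdh1 and Ogdh fell. In spleen CD8a and CD11b DCs 5 of 8 were negative, with medians of -0.09 and -0.08.

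**Figure D3:**
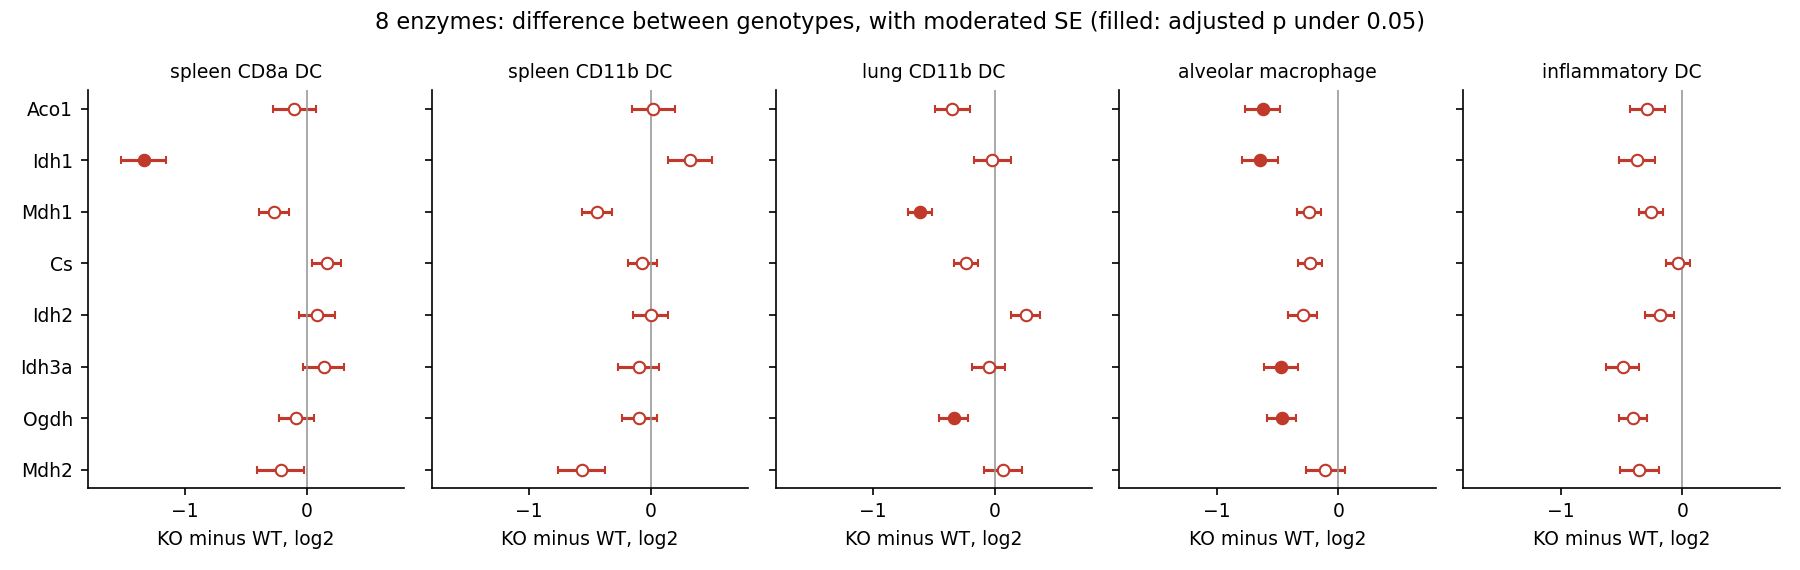
Log2 difference between KO and WT for the 8 enzymes in each cell type, with bars of 1 moderated SE; filled points have an adjusted p under 0.05. All 8 points lie left of 0 in alveolar macrophages and in inflammatory DCs, and Idh1 in spleen CD8a DCs lies farthest from 0, at -1.34.

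Over the WT cell types, 24 of 45 tests of a member in a pair of cell types were called, in 5 pairs that share libraries. Alveolar macrophages exceeded lung CD11b DCs for 6 of the 9 genes and were lower for 0, where 51.2% of all genes were called in either direction. Inflammatory DCs exceeded lung CD11b DCs for 8 genes, all but Mdh1 (background 47.5%). Inflammatory DCs and alveolar macrophages differed for 3: Irg1 and Mdh2 were higher in inflammatory DCs and Idh2 was lower (background 34.9%). Lung and spleen CD11b DCs differed for 5 (background 34.9%), with Irg1, Aco1 and Idh1 higher and Idh2 and Mdh2 lower in lung. Spleen CD8a and CD11b DCs differed for Idh1 and Mdh2 (background 23.0%). Of these calls, Irg1 between lung and spleen CD11b DCs was lost with a pseudocount of 8 (1.07, limma adjusted p = 0.0545) and with edgeR (2.31, adjusted p = 0.075). It was also lost without spleen WT replicate 1 (1.05) or lung WT replicate 2 (1.90, limma adjusted p = 0.054). Aco1 in that pair was lost without spleen WT replicate 1 (0.42). Between alveolar macrophages and lung CD11b DCs, Cs was lost without alveolar replicate 3 (0.28, 0.0503) and Idh3a without lung replicate 3 (0.36, 0.0609) or alveolar replicate 2 (0.38, 0.0526). Idh2 between inflammatory DCs and alveolar macrophages was lost without alveolar replicate 1 (-0.32, 0.0758) or inflammatory replicate 2 (-0.32, 0.0786). The tests of a difference between genotype effects called 6 of 45, given gene by gene above: 1 between the spleen cell types (2.45% of all genes called), 1 between lung and spleen CD11b DCs (12.5%), 3 between alveolar macrophages and lung CD11b DCs (16.8%), 1 between inflammatory and lung CD11b DCs (13.0%) and 0 between inflammatory DCs and alveolar macrophages (7.93%), where the smallest unadjusted p of the 9 genes was 0.116.

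The rest of the TCA cycle and the pyruvate dehydrogenase complex, counted 17 genes, of which 2 fell and 0 rose in KO alveolar macrophages: Pdha1, the catalytic subunit of pyruvate dehydrogenase (1057 ± 33.6 in WT and 816 ± 26.8 in KO, SD, n = 3, adjusted p = 0.00572), and Idh3g, the regulatory partner of Idh3a (1371 ± 30.6 and 1063 ± 34.2, adjusted p = 0.0152). The median log2 difference was -0.15, and 6.39% of all genes fell in that comparison. In lung CD11b DCs 3 of the 17 rose and 2 fell (median 0.13), near the shares of all genes, 12.0% and 14.0%. Subunits of succinate dehydrogenase, the enzyme that itaconate inhibits, went both ways there. Sdhd rose from 967 ± 124 to 1447 ± 189 (log2 difference 0.58 ± 0.11, adjusted p = 0.00036) and Sdhb rose by 0.52, while Sdha fell by 0.63 on the log2 scale. Sdha held 3732, 3613 and 3171 in WT and 3345, 1418 and 2420 in KO, so KO replicate 1 lay within the WT range. KO replicates 2 and 3 are among the libraries with fewer genes above 0. Dld, the E3 subunit that pyruvate and 2-oxoglutarate dehydrogenases share, rose from 757 ± 43.7 to 1011 ± 120.2 (adjusted p = 0.00129). Suclg2, a subunit of succinyl-CoA synthetase, fell from 299 ± 98.2 to 148 ± 48.9 (adjusted p = 0.00161). With limma 0 of the 17 were called in spleen CD8a, spleen CD11b and inflammatory DCs, where 3, 2 and 3 had an unadjusted p under 0.05, near the shares of all genes (17.4%, 12.5% and 13.7%).

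Among 20 genes for the entry, exit and carriers of the cycle, 7 fell and 0 rose in KO alveolar macrophages, with a median log2 difference of -0.25, where 6.39% of all genes fell and 10.5% rose. Slc25a13, a mitochondrial aspartate-glutamate carrier, fell from 161 ± 13.4 to 70.4 ± 2.2 (log2 difference -1.18 ± 0.17, adjusted p = 1.63e-05). Me2, mitochondrial malic enzyme, fell from 2934 ± 39.2 to 1551.5 ± 98.5 (adjusted p = 3.46e-05). Glud1, glutamate dehydrogenase, fell from 6179.9 ± 130.3 to 4403 ± 41.1 (adjusted p = 4.91e-05). In lung CD11b DCs 2 rose and 5 fell (median -0.05, all genes 12.0% and 14.0%): Me2 fell (-0.87 ± 0.14, adjusted p = 7.29e-05), Pdk1, a kinase that inhibits pyruvate dehydrogenase, fell (-0.97 ± 0.16, adjusted p = 8.25e-05), and Slc25a13 rose (0.85 ± 0.17, adjusted p = 0.000643). In inflammatory DCs Pdk1 and Pdk3 rose, by 0.59 and 0.46 (adjusted p = 0.0407 and 0.0495, 1.45% of all genes rising), and no gene of the list fell. In spleen CD8a and CD11b DCs 0 of the 20 were called with limma, and 5 and 4 had an unadjusted p under 0.05, beside 17.4% and 12.5% of all genes. Clybl, which takes part in the breakdown of itaconate, was the gene of its list in the table. It held 111 ± 6.8 in WT and 104 ± 13.1 in KO alveolar macrophages and was not called in any cell type.

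**Figure D4:**
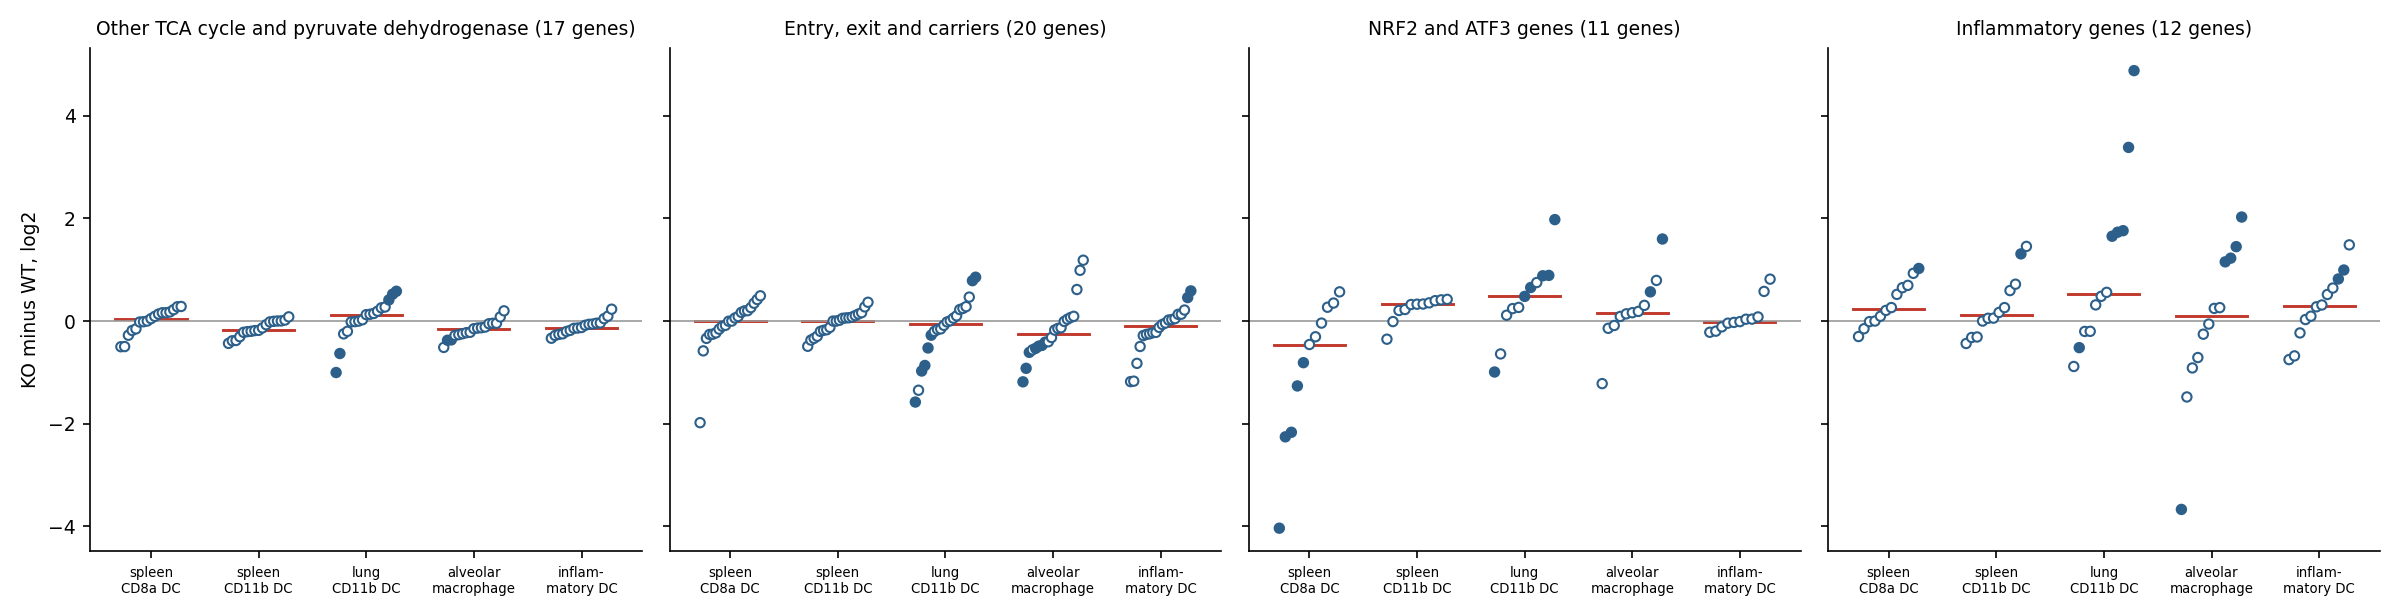
Log2 difference between KO and WT for each gene of 4 related lists, by cell type; filled points have an adjusted p under 0.05 and red lines are list medians. Hmox1 in spleen CD8a DCs (-4.04) is the lowest point; the highest is Nos2 in lung CD11b DCs, which is listed at 0 in WT, so that its height depends on the pseudocount, followed by Cxcl10 (3.38) in the same cells.

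Itaconate is known to activate NRF2, the factor that drives antioxidant genes, and to act through ATF3. Of 11 genes of these responses, 5 rose and 1 fell in lung CD11b DCs (median log2 difference 0.48), beside 12.0% and 14.0% of all genes. Txnrd1, thioredoxin reductase, rose from 826 ± 262 to 1477 ± 97.8 (adjusted p = 9.12e-05) and Slc7a11, a cystine transporter, from 261 ± 72.9 to 1046 ± 393 (adjusted p = 0.000852), while Atf3 itself fell from 14834 ± 2624.5 to 7451 ± 1333.5 (adjusted p = 0.000583). In alveolar macrophages 2 rose and 0 fell (median 0.16, with 10.5% of all genes rising and 6.39% falling): Slc7a11 went from 165 ± 2.2 to 511 ± 112 and Hmox1, heme oxygenase, from 1668 ± 144 to 2478 ± 259. In spleen CD8a DCs, where Irg1 was at 0 to 2 reads, 5 fell and 0 rose (median -0.46), beside 3.63% and 1.50% of all genes. Hmox1 fell there from 7002 ± 2316 to 421 ± 104 (SD, n = 2, adjusted p = 3.62e-11), beside the fall of the red pulp macrophage markers given above, a list that also holds Hmox1. Gclc fell from 1876.5 ± 39.9 to 782 ± 55.7 and Srxn1 from 56.8 ± 41.5 to 10.6 ± 4.8. In spleen CD11b and inflammatory DCs 0 of the 11 were called with limma, and 2 and 1 had an unadjusted p under 0.05, beside 12.5% and 13.7% of all genes.

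Of 12 inflammatory genes that activated macrophages induce along with Irg1, 5 rose and 1 fell in lung CD11b DCs (median 0.52), beside 12.0% and 14.0% of all genes. Cxcl10, an interferon-induced chemokine, rose from 241 ± 82.0 to 2496 ± 683 (log2 difference 3.38 ± 0.37, adjusted p = 4.51e-07). Cd40, a costimulatory receptor, rose from 489 ± 110.0 to 1638 ± 159.7 (adjusted p = 3.11e-06). In alveolar macrophages 4 rose and 1 fell (median 0.09), beside 10.5% and 6.39% of all genes. Cd40 rose from 6.7 ± 2.4 to 30.6 ± 10.8 and Socs3, a feedback inhibitor of cytokine signalling, from 511 ± 21.9 to 1211 ± 234. The cytokine gene Il6 fell there from 202 ± 25.6 to 20.2 ± 19.0 (adjusted p = 2.96e-05). In inflammatory DCs 2 of the 12 rose and 0 fell (median 0.30, all genes 1.45% and 1.92%), among them Irf1, an interferon-regulated transcription factor, by 0.82 on the log2 scale (adjusted p = 0.0141). Socs3 was the gene of the list called in spleen CD8a DCs (1.03, adjusted p = 0.00395) and in spleen CD11b DCs (1.31, adjusted p = 0.00215), where 1.50% and 1.28% of all genes rose.

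Likeness to each member was measured as Pearson's r of log2(normalized count + 1) over the 26 libraries, which share cell types and genotypes, and is given as a description. The genes most like Irg1 were Ikbke (0.949), Vwa5a (0.946), Lgals9 (0.941), Lgals3bp (0.938) and Fam20c (0.937). The closest gene was Nln for Idh1 (0.978), Ncln for Aco1 (0.965), Wdr7 for Ogdh (0.949), Nop2 for Idh2 (0.898), Haus8 for Mdh2 (0.881), Afg3l1 for Cs (0.879), Cat for Mdh1 (0.871) and Cend1 for Idh3a (0.787). Among the members, Aco1 was most like Idh1 (r = 0.968) and Ogdh (r = 0.953), and Irg1 ran opposite to Mdh1 (r = -0.784).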

How the data were processed

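The submitters' processing notes name STAR 2.3.1s, HTSeq and DESeq2 1.10.1 as tools and mm10 as the build. The deposited values are a signal per gene and library that the authors made by scaling read counts with a size factor for each library, per the submitters' processing notes and the values. Dividing by the step between values gave whole reads, within 1e-06, for 100% of values in the 26 libraries; in 1 library that step lies close to 1. The sources used here do not state the strand setting or annotation of the counting. Low counts limit precision: a library's 7.37 to 14.1 M reads gave Irg1 0 to 7 reads in the spleen.

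The test was limma 3.58.1 (R 4.3.3) on log2(normalized count + 1), with 1 mean per group, all 26 libraries and a mean-variance trend. Genes at 10 or more in at least 2 libraries were tested (13311). Benjamini-Hochberg adjusted p under 0.05 within a contrast was called. A fold change on this scale understates the change of low genes. Errors on log2 differences are moderated SEs. The labels do not say whether libraries came from separate animals or from pools, and some libraries hold signal of both sexes. The p-values thus measure spread between libraries, which may be technical. Alternatives were pseudocounts of 0.25 and 8, no filter, TMM scaling, edgeR 4.0.16 and DESeq2 1.42.0 on the recovered reads, sample weights, each cell type alone and leaving out each library. The steps were tested on simulated data.

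The 9 members and the related lists were chosen with earlier results of these data known. All 9 members are named, up to 3 genes of each related list with the smallest p in a comparison (Sdhb, Sdha and Nos2 were named after their values were seen), and the genes with the highest correlation to each member. Some items are not reported here.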

Additional observations from a re-analysis of the deposited data

Results flagged for a closer look

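In 6 tests the difference between KO and WT itself differed between cell types (limma, adjusted p under 0.05 over all genes tested). For Irg1 the difference of log2 effects was 6.50 for lung minus spleen CD11b DCs (adjusted p = 0.00025; 5.11 to 7.90 without a library, since the spleen libraries hold 0 to 7 reads), -3.76 for inflammatory minus lung CD11b DCs (0.0068) and -2.58 for alveolar macrophages minus lung CD11b DCs (0.04998). For Idh1 it was -1.67 for spleen CD8a minus CD11b DCs (0.000233) and -0.63 for alveolar macrophages minus lung CD11b DCs (0.0422). For Idh2 it was -0.55 in the latter pair (0.0264). With 2 or 3 libraries a group, no test for a single outlying library was run.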

How the results depend on the processing

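No direction of a called result turned under any setting run. The number of members called in spleen CD8a DCs was 1 in all fits without a library. In spleen CD11b DCs 0 became 1 with DESeq2, 2 with sample weights, 1 with these libraries alone and 0 to 1 without a library. In lung CD11b DCs 3 became 2 to 5 without a library, the 5 being without KO replicate 1, and 2 with sample weights or these libraries alone, where Ogdh was lost (adjusted p = 0.0555 and 0.207). In alveolar macrophages 5 became 8 with sample weights and 8 with these libraries alone, and 4 to 5 without a library. Calls over all genes rose there too, from 2247 of 13311 to 4509 with sample weights and 4244 of 11465 with these libraries alone. In inflammatory DCs 0 became 3 with a pseudocount of 8, 1 with edgeR, 3 with DESeq2, 3 with sample weights, 1 with these libraries alone and 0 to 1 without a library. Over all genes 448 calls became 576, 449, 645, 843 and 383 with these settings in turn. For spleen CD11b DCs 202 calls over all genes became 361 with DESeq2, 652 with sample weights and 472 with these libraries alone. For lung CD11b DCs 3471 became 1897 with sample weights and 1371 with these libraries alone. The 24 calls between WT cell types became 22 to 25 without a library, and the 6 differences between effects 3 to 7, the 3 being without alveolar macrophage WT replicate 1 or KO replicate 3. The cause was not tested.

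Irg1 in inflammatory minus lung CD11b DCs had an adjusted p of 0.0572 with a pseudocount of 0.25, and in alveolar macrophages minus lung CD11b DCs 0.195, with 0.0747 under no filter and 0.148 with sample weights. Idh1 in the latter pair had 0.0595 under no filter. A term for the 3 lung CD11b libraries with fewer detected genes, added after seeing the data, left Irg1 at 5.65 and Mdh1 at -0.62, and Ogdh at -0.22 (adjusted p = 0.113), and Idh2 was called at 0.35 (0.0228). Leaving out a spleen library leaves 1 in its group, which is assumed to vary like the other groups. No paired analysis was run, because the labels number the libraries 1 to 26 and give no replicate number shared between groups. The Y-linked counts were 977 in spleen CD8a and 932 in spleen CD11b KO replicate 1, and 3049 and 3295 in their KO replicate 2. Xist ran alike in these libraries, as given above. Whether the 2 spleen cell types came from the same animals is not stated, and the tests treated their libraries as independent.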
